A study of Mus musculus with 4 samples.

Results

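The SOX transcription factor family was examined through 10 genes of 4 subgroups, namely Sox1 and Sox2 (SoxB1), Sox21 and Sox14 (SoxB2), Sox4, Sox11 and Sox12 (SoxC), and Sox8, Sox9 and Sox10 (SoxE). The genes were taken by their symbols from the 22619 genes listed in either of 2 deposited count tables, and 9 of the 10, all but Sox14, were listed in both tables. Gene expression was measured by RNA sequencing of total RNA from cortex of C57BL/6 mouse embryos at stage E16.5. Of 4 libraries, 2 were wild type, called WT1 and WT4 after their replicate numbers, and 2 were labelled as lacking the histone variant H2A.Z.2 through a conditional allele, called cKO1 and cKO2. The series asks how this variant, acting in neural progenitor cells, bears on microglia. The labels name neither the Cre driver nor the deleted exons, and they do not say whether the libraries came from separate embryos. P-values therefore measure library-to-library spread, which may be technical in part.

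SOX proteins carry an HMG box, a domain that binds the minor groove of DNA and bends it, and they usually act with a partner factor. In the developing cortex, SoxB1 proteins hold cells in the progenitor state, and SoxB2 proteins act against them at shared target genes. SoxC proteins act later, in committed and newborn neurons, and SoxE proteins act in neural stem cells and in the astrocyte and oligodendrocyte lineages.

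The libraries held 16625181 to 17940659 reads on genes. The targeted gene H2afv was at 136 and 222 CPM (read counts scaled to library size, TMM-normalised) in WT1 and WT4, and at 128 and 127 CPM in cKO1 and cKO2. Because cKO1 and cKO2 lay so near WT1, they are called the libraries labelled cKO. WT4 stood apart from the other 3 libraries, at 53.7 on a first principal component with 63.6% of the variance, against -25.9 to -10.01 elsewhere. Reads on Gm23935, CT010467.1 and Lars2, genes that commonly take up ribosomal RNA reads, made up 0.383% of WT4 and 0.0346% to 0.0480% of the other libraries, and their part in the results was not tested. All 8 defining cortex genes of a fixed list were detected in every library.

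None of the 9 SOX genes tested differed between the groups at 5% FDR. The SoxB genes Sox1, Sox2 and Sox21 and the SoxE genes Sox8 and Sox9 were lower on average in the libraries labelled cKO, and Sox12 and Sox10 were higher. Sox4 and Sox11 had log2 fold changes near 0, whose sign turned when single libraries were left out. Over all 16269 genes tested, 0 were called by edgeR (0% of genes), with 272 at an unadjusted p below 0.05, and DESeq2 also called 0, with 377. In bulk tissue, fewer cells of a type and less RNA per cell cannot be told apart.

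Levels were first compared across the family per length, as RPKM (TMM-normalised CPM per kilobase of annotated exons). Sox11 was the most abundant member in every library, at 236, 207, 198 and 262 RPKM in WT1 and WT4 and cKO1 and cKO2. Next came Sox12, at 74.7 to 97.0 RPKM, and Sox2, at 44.7 to 96.5 RPKM, whose ranges overlapped. Sox4 (13.9 to 29.9 RPKM) and Sox1 (13.3 to 28.6 RPKM) could not be ordered beyond their spread, nor could Sox9 (9.62 to 16.6 RPKM) and Sox8 (8.61 to 13.3 RPKM). Sox21 followed at 3.21 to 10.6 RPKM, and Sox10 was at 1.10 to 2.10 RPKM, below every value of Sox21. These were the 9 members in both tables, and Sox14 was lower still, at 0.143 RPKM in WT4.

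The balance of subgroups differed between libraries. SoxC genes made up 75.8% of the summed RPKM of the 9 members in WT1, 65.1% in WT4, 75.1% in cKO1 and 82.0% in cKO2. SoxB1 genes made up 17.2%, 26.2%, 18.3% and 12.4% in the same order. The SoxB1 share was thus highest in WT4 and lowest in cKO2, and WT1 lay within the range of the libraries labelled cKO. The SoxE share, 4.96% to 6.49%, and the SoxB2 share, 0.684% to 2.23%, were small in each library.

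**Figure D1:**
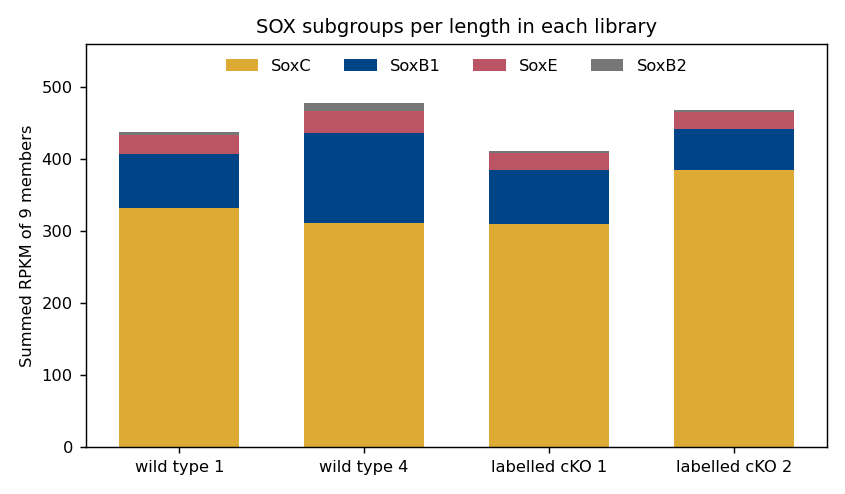
Summed RPKM of the 9 members listed in both tables, stacked by subgroup, with 1 bar per library. SoxC is the largest block in each bar, and the SoxB1 block is largest in WT4 (125 RPKM) and smallest in cKO2 (58.0 RPKM).

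Promoter sequences are shown for 4 members that stand for the different patterns described below, with Sox2 and Sox21 lower, Sox12 higher and Sox4 without a common direction. Each line holds the 250 bases before the RefSeq gene start on GRCm38.p6, read 5′ to 3′ along the gene. Capitals mark the letters of the SOX motifs ACAAAG and ACAATG, the POU octamer ATGCAAAT and the CCAAT box CCAAT, on either strand. The windows are chr3:34649745-34649994 on the plus strand for Sox2, chr14:118237031-118237280 on the minus strand for Sox21, chr13:28953700-28953949 on the minus strand for Sox4 and chr2:152398047-152398296 on the minus strand for Sox12.
Sox2: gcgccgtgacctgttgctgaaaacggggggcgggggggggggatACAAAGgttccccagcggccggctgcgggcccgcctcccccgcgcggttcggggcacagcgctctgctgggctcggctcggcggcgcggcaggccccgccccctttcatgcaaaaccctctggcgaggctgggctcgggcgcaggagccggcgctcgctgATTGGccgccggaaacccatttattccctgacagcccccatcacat
Sox21: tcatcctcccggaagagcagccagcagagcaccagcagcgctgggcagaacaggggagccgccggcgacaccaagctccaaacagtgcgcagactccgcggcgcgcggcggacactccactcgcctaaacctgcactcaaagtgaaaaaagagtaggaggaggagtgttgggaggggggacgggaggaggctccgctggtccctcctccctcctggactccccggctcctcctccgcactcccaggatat
Sox4: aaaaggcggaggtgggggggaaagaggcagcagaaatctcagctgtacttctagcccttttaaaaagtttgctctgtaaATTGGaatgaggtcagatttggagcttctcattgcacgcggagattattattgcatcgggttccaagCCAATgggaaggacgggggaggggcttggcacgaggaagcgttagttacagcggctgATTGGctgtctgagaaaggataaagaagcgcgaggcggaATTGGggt
Sox12: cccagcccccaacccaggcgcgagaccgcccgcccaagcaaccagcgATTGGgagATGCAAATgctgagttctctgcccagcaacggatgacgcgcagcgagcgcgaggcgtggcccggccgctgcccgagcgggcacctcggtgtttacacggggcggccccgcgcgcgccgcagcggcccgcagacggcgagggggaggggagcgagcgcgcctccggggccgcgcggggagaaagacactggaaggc
The Sox2 window held ACAAAG at 206 to 201 bases before the start, a motif found in 16.46% of 32851 promoter windows of this length. The Sox12 window held the octamer at 195 to 188 bases before the start, which 1.60% of windows hold. CCAAT, present in 33.9% of windows, occurred 4 times in Sox4 and once each in Sox2 and Sox12. None of the 4 windows held ACAATG, which 10.7% of windows hold, and the Sox21 window held none of these letters. Only Sox2 and Sox12, of the 8 members with an entry, held a motif other than CCAAT. Sox9 and Sox10 had no entry in the promoter table.

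Sox2 encodes the SoxB1 factor that defines neural progenitors and is needed to keep them. Its single-exon gene (ENSMUSG00000074637, chromosome 3, 34650405 to 34652461, plus strand) was at 118 and 199 CPM in WT1 and WT4, and at 113 and 92.0 CPM in cKO1 and cKO2. cKO1 and cKO2 were each below WT1 and WT4, cKO1 only just below WT1. Group means were 158 ± 57.1 CPM in wild type and 103 ± 15.2 CPM in the libraries labelled cKO (SD, n = 2 each). The log2 fold change was -0.62 (SE 0.26, 95% interval -1.24 to -0.0033, edgeR adjusted p = 0.956). A value this low or lower was seen in 4.71% of genes tested.

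Sox1, the other SoxB1 gene examined, acts in early neural progenitors and overlaps in function with Sox2. It lies in a single exon (ENSMUSG00000096014, chromosome 8, 12395295 to 12400126, plus strand). Its levels were 86.7 and 138 CPM in WT1 and WT4 and 97.4 and 64.0 CPM in cKO1 and cKO2. The groups overlapped, since cKO1 lay above WT1. The log2 fold change was -0.48 (SE 0.28, 95% interval -1.16 to 0.20, edgeR adjusted p = 0.956). Per length, Sox2 exceeded Sox1 by 3.19, 3.38, 2.74 and 3.37 times in the 4 libraries in the same order, so their ratio varied less between libraries than either level did.

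Both SoxB1 genes lie inside longer noncoding genes on the same strand, with which they share 0 exon bases in the annotation. Sox1ot, listed under the older symbol Gm5607 and matched by its identifier, had 1532 and 2405 reads in WT1 and WT4 and 1670 and 881 reads in cKO1 and cKO2. Sox1 itself had 1505, 2338, 1743 and 1099 reads in these libraries, the same order from low to high. The log2 fold change of Sox1ot was -0.67 (SE 0.33), and -0.97 without WT1, -0.28 without WT4, -1.16 without cKO1 and -0.30 without cKO2. Sox2ot had 862, 964, 931 and 503 reads in the same library order and a log2 fold change of -0.39 (SE 0.27). It did not share the order of Sox2, since cKO1 exceeded WT1. That difference rests on near ties, with log2 ratios of cKO1 over WT1 of 0.07 in Sox2ot and -0.05 in Sox2. The log2 fold change of Sox2ot was -0.04 without cKO2 and -0.86 without cKO1.

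Sox21 encodes a SoxB2 factor that counters SoxB1 activity and promotes exit from the progenitor state. It had the lowest log2 fold change of the 9 members. The gene (ENSMUSG00000061517, chromosome 14, 118233232 to 118237030, minus strand, 1 exon) was at 17.8 and 40.4 CPM in WT1 and WT4 and at 14.6 and 12.2 CPM in cKO1 and cKO2. WT4 stood far above the rest, and both libraries labelled cKO lay below WT1. The group means were 29.1 ± 16.01 CPM and 13.4 ± 1.74 CPM (SD, n = 2 each), a log2 fold change of -1.12 (SE 0.38, 95% interval -2.05 to -0.19, edgeR adjusted p = 0.956). A value this low or lower was seen in 0.744% of genes tested. The opposite-strand gene Gm4675 shares 18.8% of the exon bases of Sox21 and had 8 to 16 reads per library, against 209 to 685 for Sox21.

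Sox14, the other SoxB2 gene (ENSMUSG00000053747, chromosome 9, 99874106 to 99876170, minus strand), marks inhibitory neurons of the diencephalon and midbrain. It was listed only in the table of cKO1 and WT4, with 5 reads in WT4 and 0 in cKO1, which allows up to 0.167 CPM (3 reads). The other table did not list it, so WT1 and cKO2 can hold at most 4 reads each. It entered no test here, and no fold change was computed for it. Of 14 diencephalon genes all 14 were listed in at least 1 table, and their summed level was 85.4 and 158 CPM in WT1 and WT4 and 97.0 and 49.1 CPM in cKO1 and cKO2. Among the most abundant was Lhx9, a transcription factor of the thalamus, at 16.1, 24.4, 10.7 and 4.31 CPM in that order. The largest single part of each sum was Six3, a forebrain homeobox gene, at 34.3, 53.1, 45.2 and 17.4 CPM. The sum was highest in WT4, the library with 5 reads on Sox14. Of the 11 diencephalon genes tested, 2 were higher and 9 lower, none past 5% FDR (0 of 11), and the median log2 fold change was -0.60. That median was -0.15 without WT4, -0.98 without WT1, -1.05 without cKO1 and -0.28 without cKO2. Their part in the level of Sox14 was not tested.

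Sox11, a SoxC factor of newborn neurons, was nearly level between the groups. Its single-exon gene (ENSMUSG00000063632, chromosome 12, 27334264 to 27342574, minus strand) was at 1958 and 1717 CPM in WT1 and WT4 and at 1645 and 2180 CPM in cKO1 and cKO2. The libraries labelled cKO held both the lowest and the highest value. Its fold change on the log2 scale was 0.06 (SE 0.17, 95% interval -0.35 to 0.47, edgeR adjusted p = 0.974). It was -0.16 without cKO2, -0.03 without WT4, 0.16 without WT1 and 0.25 without cKO1.

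Sox4 is a SoxC factor that overlaps with Sox11 in newborn neurons and also acts in intermediate progenitors. In Sox4 (ENSMUSG00000076431, chromosome 13, 28948919 to 28953713, minus strand, 1 exon) it was the wild-type libraries that held both extremes. They were at 66.6 and 143 CPM in replicates 1 and 4, with cKO1 and cKO2 between them at 94.1 and 120 CPM. The spread within wild type, a log2 ratio of 1.11 between its 2 libraries, exceeded the difference between group means. Between groups the log2 fold change was 0.03 (SE 0.34, 95% interval -0.80 to 0.86, edgeR adjusted p = 0.993). It was 0.69 without WT4 and -0.42 without WT1. An opposite-strand gene, Gm26735, covers 54.6% of the exon bases of Sox4 in the annotation and is listed in neither table. How reads in the shared stretch were assigned is therefore uncertain. The RPKM of Sox4, its ratios to other members and the SoxC share carry this uncertainty.

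Between WT1 and WT4 these genes went opposite ways, and between cKO1 and cKO2 the same way. Per length, Sox11 exceeded Sox4 by 17.0 times in WT1, 6.90 times in WT4, 10.1 times in cKO1 and 10.5 times in cKO2. The ratio of Sox11 to Sox12 moved less, from 2.15 to 2.85.

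Sox12, the least studied SoxC gene and a weaker activator than Sox4 and Sox11, was higher in both libraries labelled cKO. The gene (ENSMUSG00000051817, chromosome 2, 152393611 to 152398063, minus strand, 1 exon) was at 369 and 332 CPM in WT1 and WT4 and at 409 and 432 CPM in cKO1 and cKO2. The groups did not overlap, and both were tight. The means were 351 ± 25.6 CPM and 420.35 ± 16.1 CPM (SD, n = 2 each), a log2 fold change of 0.26 (SE 0.12, 95% interval -0.04 to 0.56, edgeR adjusted p = 0.956). This was the smallest SE of the 9 members, and the fold change stayed between 0.19 and 0.34 when each library was left out in turn.

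Sox9 is needed for neural stem cells and for the switch to gliogenesis. The gene (ENSMUSG00000000567, chromosome 11, 112782224 to 112787760, plus strand, 3 exon blocks) was at 51.5 and 68.6 CPM in WT1 and WT4 and at 39.8 and 51.9 CPM in cKO1 and cKO2. cKO2 lay barely above WT1, and scaled to library totals alone it lay just below it (50.9 against 51.7 CPM), so whether the groups overlap depends on the scaling. For Sox9 the log2 fold change was -0.39 (SE 0.21, 95% interval -0.89 to 0.11, edgeR adjusted p = 0.956).

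Sox8, which acts with Sox9 and Sox10 in glia, was at similar levels to Sox9 per length. Its gene (ENSMUSG00000024176, chromosome 17, 25565892 to 25570686, minus strand, 3 exon blocks) was at 36.4 and 41.5 CPM in WT1 and WT4 and at 36.1 and 26.9 CPM in cKO1 and cKO2. The groups did not overlap, but cKO1 differed from WT1 by only -0.01 on the log2 scale. For Sox8 the log2 fold change was -0.31 (SE 0.20, 95% interval -0.78 to 0.17, edgeR adjusted p = 0.956). The antisense gene 2810468N07Rik shares 10.6% of the exon bases of Sox8 and had 79 to 114 reads per library against 461 to 703 for Sox8.

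Sox10 is the SoxE factor of oligodendrocyte precursors and of neural crest derivatives. The gene (ENSMUSG00000033006, chromosome 15, 79154913 to 79164490, minus strand, 5 exon blocks) had 102 and 57 reads in WT1 and WT4 and 109 and 110 reads in cKO1 and cKO2, or 5.88, 3.37, 6.09 and 6.41 CPM. WT4 was low and the other 3 libraries were close together. The log2 fold change was 0.43 (SE 0.35, 95% interval -0.42 to 1.29, edgeR adjusted p = 0.956), and it was 0.09 without WT4.

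**Figure D2:**
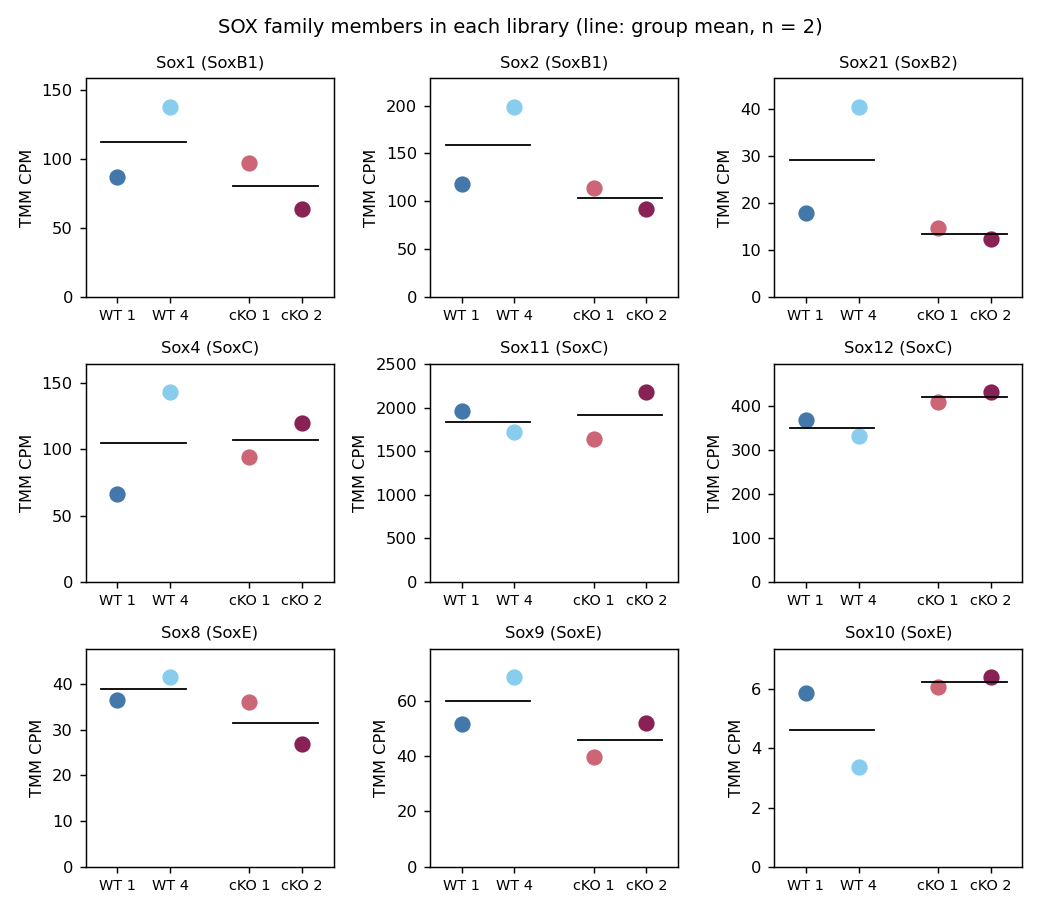
TMM-normalised CPM of the 9 members listed in both tables, with 1 point per library and a line at each group's mean (n = 2). WT4 is the highest library for 6 members, among them Sox2 (199 CPM) and Sox21 (40.4 CPM), and the lowest for Sox12 (332 CPM) and Sox10 (3.37 CPM).

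Across the family, 5 of 9 members were lower and 4 higher, with a median log2 fold change of -0.31, against 51.9% of genes lower, 48.1% higher and a median of -0.01 over all genes tested. Sox2 and Sox21 had an unadjusted edgeR p below 0.05 (0.0491 and 0.0256), a mark reached by 1.67% of genes tested. Both were lower, as were 0.996% of genes at that mark, while 0 members and 0.676% of genes were higher. The groups did not overlap in 5 of 9 members, 3 of them lower (Sox2, Sox21, Sox8) and 2 higher (Sox12, Sox10). Among all genes tested, 31.6% had groups without overlap, 15.7% with lower and 16% with higher values in the libraries labelled cKO, or 32.1% in all by library totals. Of the 9 members, 6 were highest in WT4, as were 37.6% of all genes tested.

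**Figure D3:**
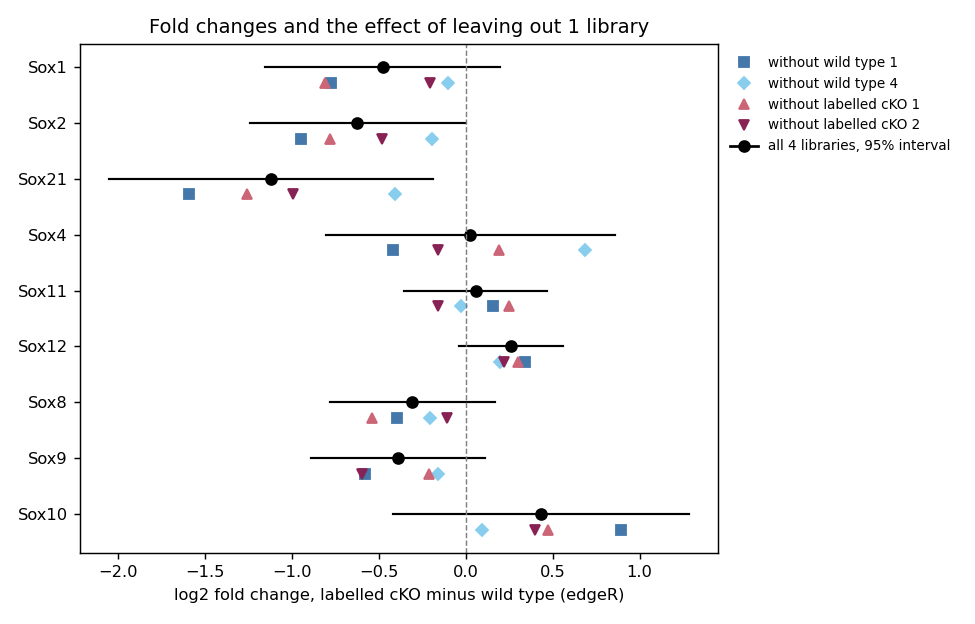
edgeR log2 fold change of each member, libraries labelled cKO minus wild type, with its 95% interval (black) and, below it, the value after leaving out each library. Sox1, Sox2, Sox21, Sox8 and Sox9 stay below 0 and Sox12 and Sox10 above 0 throughout, whereas Sox4 ranges from -0.42 to 0.69.

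Member calls depended on which wild-type library was used. Without WT1, Sox21 (-1.59), Sox2 (-0.95), Sox1 (-0.77) and Sox9 (-0.58) passed 5% FDR as lower, with edgeR adjusted p of 0.00049, 0.00142, 0.0185 and 0.0463, while 10.9% of all genes were called, 5.59% as lower. Without WT4, their log2 fold changes were -0.40, -0.19, -0.10 and -0.16, none was called, and 0% of genes were called. Members with a log2 fold change below 0 numbered 6 without WT1 (49.6% of genes), 6 without WT4 (49.5%), 5 without cKO1 (52.5%) and 7 without cKO2 (51.9%). Without cKO1 or cKO2 no member was called, with 0.00592% and 0% of genes called. The log2 fold changes without cKO1 and without cKO2 were -0.81 and -0.21 in Sox1, -0.21 and -0.59 in Sox9, and -0.54 and -0.11 in Sox8, so single libraries labelled cKO also moved these genes. Each fit without a wild-type library left a lone wild-type library, which is assumed to vary like the other group. Against WT1 directly, cKO1 and cKO2 differed by log2 ratios of -0.28 and -0.55 in Sox21, -0.05 and -0.36 in Sox2, and 0.17 and -0.44 in Sox1. Sox21 and Sox2 were thus below either wild-type library in both, by a small margin in Sox2.

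The deposited tables pair each library labelled cKO with a different wild-type library, so they share no library. Members lower in both pairs numbered 4 of 9 (Sox1, Sox2, Sox21 and Sox8), against 26.3% of genes tested. Members higher in both pairs numbered 2 of 9 (Sox10 and Sox12), against 26.3% of genes. The log2 CPM ratio of cKO1 over WT4 was -1.47 for Sox21, -0.81 for Sox2, -0.50 for Sox1 and -0.20 for Sox8. That of cKO2 over WT1 was -0.55, -0.36, -0.44 and -0.44 in the same order. Sox1 was the most alike of these between the pairs. Signs were opposite in 3 of 9 members (Sox4, Sox11 and Sox9), against 47.4% of genes, and Sox4 had the widest gap, -0.61 in the first pair and 0.85 in the second. In the authors' deposited tables, Sox4 had log2 fold changes of -0.64 and 0.81, for 1 library against 1 library, with adjusted p of 1.38e-43 and 2.68e-52. Of the 10 members, the authors' deposited table of cKO1 and WT4 marked Sox21 and Sox14 as significant, and the other marked none. The marked genes had log2 fold changes of -1.50 (Sox21) and -3.43 (Sox14), beyond the series threshold of 1 in size. The Sox14 value rests on 5 reads in WT4 and 0 in cKO1, with 0.5 reads in place of 0. Sox2, at -0.84 in that table, was not marked although the authors' adjusted p was 7.09e-96, for 1 library against 1.

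**Figure D4:**
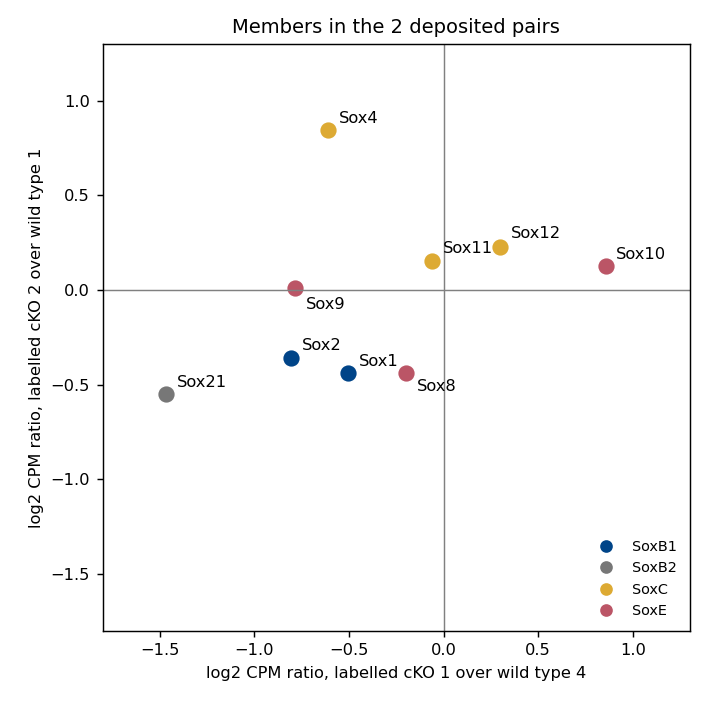
Log2 ratio of TMM-normalised CPM in the 2 deposited pairs, cKO1 over WT4 on the x axis and cKO2 over WT1 on the y axis, with 1 point per member coloured by subgroup. Sox1, Sox2, Sox21 and Sox8 lie in the lower left, Sox12 and Sox10 in the upper right, and Sox4 in the upper left at -0.61 and 0.85.

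Other SOX genes were also often highest in WT4, as 5 of the 7 tested were, against 37.6% of all genes tested. Of 9 on the list, all were detected and 7 passed the filter on low counts, and these had log2 fold changes below 0, with 0 past 5% FDR and a median of -0.21. Without WT4 only 4 of the 7 were lower and the median was -0.04, and without WT1 it was -0.49. Sox3, the X-linked SoxB1 gene, was at 24.7 and 67.4 CPM in WT1 and WT4 and at 25.6 and 19.2 CPM in cKO1 and cKO2, a log2 fold change of -1.04 (SE 0.45) that was -0.13 without WT4. WT4 alone was high, and the groups overlapped.

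The SoxD genes lack a transactivation domain and modulate other SOX proteins. Sox6, which acts in progenitors and interneurons, was at 42.6, 73.6, 45.0 and 37.5 CPM in WT1 and WT4 and cKO1 and cKO2. Sox5, which acts in deep-layer neurons, was at 145, 170, 116 and 184 CPM in this order, with a log2 fold change of -0.07 (SE 0.23). Sox13 was at 18.4, 28.7, 22.7 and 14.2 CPM. All 3 overlapped between groups, and Sox6 and Sox13 were highest in WT4.

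The SoxF genes of endothelium were low. Sox7 was at 3.96 to 4.64 CPM and Sox18 at 7.81 to 9.86 CPM, with log2 fold changes of -0.04 (SE 0.30) and -0.21 (SE 0.24). Sox17 was at 3.92 to 6.73 CPM, with a log2 fold change of -0.15 (SE 0.36). Sox18 was lower in both libraries labelled cKO without overlap, as were 15.7% of all genes tested, while Sox7 and Sox17 overlapped. Sox15 had 1 to 4 reads and Sox30 3 to 9 reads per library, and neither was tested.

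Radial glia genes that are expressed with Sox2 were mostly lower on average in the libraries labelled cKO. Of 18 tested, 16 were lower and 2 higher, with 0 past 5% FDR and a median log2 fold change of -0.44. Of these 18, 12 were highest in WT4, against 37.6% of all genes tested. Vim, an intermediate filament gene, was at 447 and 665 CPM in WT1 and WT4 and at 417 and 354 CPM in cKO1 and cKO2. Fabp7, a fatty acid binding protein gene of radial glia, went the other way within wild type, at 614 and 394 CPM, with 497 and 444 CPM in cKO1 and cKO2. Lhx2, a cortical progenitor transcription factor, was at 237, 365, 228 and 249 CPM, and Msi1, which encodes an RNA-binding protein of progenitors, at 305, 388, 346 and 335 CPM. The list median was -0.21 without WT4, -0.63 without WT1, -0.42 without cKO1 and -0.41 without cKO2. The summed level of the list was 2654 and 2981 CPM in WT1 and WT4 and 2388 and 2292 CPM in cKO1 and cKO2. Its part in the levels of Sox1, Sox2 and Sox21 was not tested.

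POU factors bind DNA beside SoxB1 proteins. Of 5 tested, 2 were higher and 3 lower, with 0 past 5% FDR and a median log2 fold change of -0.02. Pou3f1 was at 64.9 and 52.0 CPM in WT1 and WT4 and at 68.8 and 99.98 CPM in cKO1 and cKO2, a log2 fold change of 0.53 (SE 0.22), with no overlap between groups. Pou3f3, the most abundant, was at 371, 442, 363 and 436 CPM and overlapped. Pou3f2 was at 125, 115, 112 and 181 CPM and also overlapped. Pou2f1, at 35.5, 37.6, 32.1 and 31.3 CPM, was lower in both libraries labelled cKO without overlap. Groups without overlap were seen in 31.6% of all genes tested.

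Genes listed for newborn neurons, in which Sox4 and Sox11 are active, were divided evenly. Of 16 tested, 8 were higher and 8 lower, with 0 past 5% FDR and a median log2 fold change of 0.0031. Tubb3, a neuronal tubulin gene, was at 2815 and 2376 CPM in WT1 and WT4 and at 3173 and 3239 CPM in cKO1 and cKO2. Its log2 fold change was 0.30 (SE 0.13), with no overlap between groups. Of the 16, 1 was higher and 2 were lower without overlap, against 16% and 15.7% of all genes tested. Dcx, a microtubule-binding protein gene of migrating neurons, stayed within 855 to 987 CPM in the 4 libraries. Stmn1, which encodes a tubulin-binding protein, was at 2565, 1686, 2446 and 2703 CPM, and Neurod6, a transcription factor of pyramidal neurons, at 871, 675, 691 and 1155 CPM in the library order used above. Both of these were lowest in WT4, as were 36.3% of all genes tested. Sox4 was highest in WT4, as were 7 of the 16 list genes and 37.6% of all genes tested.

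Astrocyte lineage genes, expressed with Sox9, had 7 members higher and 9 lower of 16 tested, with 0 past 5% FDR and a median log2 fold change of -0.06. Nfia, a gliogenic factor that acts with Sox9, was at 233 and 249 CPM in WT1 and WT4 and at 174 and 277 CPM in cKO1 and cKO2. Sox9 and Nfia were both lowest in cKO1, as were 22.5% of all genes tested. Most genes of this list were instead lowest in WT4 or cKO2. Nfib was also low in cKO1, at 746 CPM, but lowest in WT4, at 692 CPM, with 1063 CPM in WT1 and 1216 CPM in cKO2. Nfix was at 1041 to 1470 CPM and was higher in both libraries labelled cKO (log2 fold change 0.28), and Aldoc, a glycolytic enzyme gene of astroglia, was lower in both, at 153 and 136 CPM against 164 and 185 CPM.

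Oligodendrocyte lineage genes, expressed with Sox10 and Sox8, were low in all libraries. Of 11 tested, 7 were higher and 4 lower, with 0 past 5% FDR and a median log2 fold change of 0.05. The lineage factor Olig1 was at 26.6 and 19.2 CPM in WT1 and WT4 and at 34.4 and 26.3 CPM in cKO1 and cKO2, lowest in WT4 as Sox10 was. Olig2, its paralog, was highest there, at 35.7 CPM, against 17.1 to 29.0 CPM elsewhere. The myelin genes Mbp and Cnp were at 20.9 to 29.0 CPM and 14.8 to 20.6 CPM.

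Tissues beside the cortex that express SoxE genes were checked in the same libraries. Of 8 neural crest and Schwann cell genes, a source of Sox10, 7 were listed with summed levels of 25.2 to 36.8 CPM, and Foxd3 was listed in neither table. Most of this came from the neurotrophin receptor gene Ngfr, at 16.7 to 21.6 CPM. Of the 3 tested in this list, all 3 were lower, with 0 past 5% FDR. Of 8 cartilage genes, a source of Sox9, 7 were listed, and their sums were 82.4, 130.2, 90.8 and 68.2 CPM in WT1 and WT4 and cKO1 and cKO2. Most of this came from Col2a1, a collagen gene, at 52.8, 99.1, 58.5 and 42.9 CPM, whereas Acan, which encodes the main cartilage proteoglycan, was at 0.295 to 0.503 CPM. Of 4 cartilage genes tested, 1 was higher and 3 lower, with 0 past 5% FDR.

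Choroid plexus genes varied most between libraries. The sum over 9 listed genes was 34.3 and 11.6 CPM in WT1 and WT4 and 502 and 54.8 CPM in cKO1 and cKO2, mainly from Ttr, which encodes the carrier transthyretin, at 465 CPM in cKO1. Of 6 tested, 5 were higher and 1 lower, with 0 past 5% FDR. Sox9 was lowest in cKO1, at 39.8 CPM, and 22.5% of all genes tested were lowest there. Vessel and meningeal genes had 5 higher and 6 lower of 11 tested, with a median of -0.03, 0 past 5% FDR and summed levels of 198 to 258 CPM. The part of these tissues in the levels of SoxE and SoxF genes was not tested.

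The genes most like the leading member of each subgroup were found among 10181 genes with a mean of at least 10 CPM, by the root mean square distance of log2 CPM centred over the 4 libraries. For Sox2 these were Wdhd1 (0.0186), Kif18b (0.0210) and Knstrn (0.0255). Sox1 ranked 192 of 10181 by likeness to Sox2, at 0.124. The nearest to Sox21 were Bub1 (0.0549), AC144543.2 (0.0613) and Ndc80 (0.0783), with Sox3 at rank 17 (0.126) and Sox2 at rank 145. For Sox11 they were Akirin2 (0.0139), Rps6ka5 (0.0152) and Efr3a (0.0162), and Sox12 ranked 2540 and Sox4 9612. For Sox9 they were Edem3 (0.0216), Cnep1r1 (0.0276) and Zmpste24 (0.0283), and Sox8 ranked 5271. With 4 libraries, 1 of which stood apart, such likeness rests on few points and is given as a description.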

How the data were processed

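Total RNA of 4 cortex libraries was sequenced. Bowtie2 2.2.3, TopHat2 2.0.12 and HTSeq 0.6.0 are named, with build mm9, in the submitters' processing notes. Positions in the deposited tables were those of GRCm38, with 92.2% of 22574 genes identical to GENCODE release M21. Per the file headers, each deposited table gives raw read counts per gene, a normalised value, a fold change (ratio), its log2 and p-values for 1 library against 1. The authors' normalised value, treated here as a score, was the count over 1 constant per library, with 0.5 reads in place of 0. Tables listed genes with at least 1 read in both libraries or 5 in either, a rule read from the values. The use of strand in counting is not stated in these sources. An empty line in each file is not analysed here.

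Columns were matched to samples by title. The 19844 genes in both tables were compared, 2 libraries against 2, by the two-sided quasi-likelihood test of edgeR 4.0.16 (R 4.3.3), after TMM scaling and filterByExpr at 10 reads, with Benjamini-Hochberg adjustment over 16269 genes. The pipeline was tested on simulated data. Alternatives were DESeq2 1.42.0, other size factors and filters, genes of 1 table added as 0, the deposited table as a block, and each library left out. RPKM used GENCODE exon lengths, and summed list levels count unlisted values as 0.

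Members, lists and tests were chosen with earlier results of these data known. Named genes were all members, other SOX genes, the 4 most abundant genes of each list, noncoding genes at member loci, and the 3 genes nearest in pattern to the leading member of each subgroup. A few members of the lists named for a low or absent level, such as Acan and Foxd3, and the genes that take up ribosomal RNA reads, were chosen after values were seen. Some genes that the rule names are not reported here. Chi-square per gene between libraries was 6.09 to 38.9, so the counts of no library were a copy of another's. This measure cannot tell whether the libraries came from separate embryos.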

Additional observations from a re-analysis of the deposited data

How the results depend on the processing

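No member passed 5% FDR under any of the 8 alternatives that kept all 4 libraries, and 71 of 72 member results there kept their direction. The exception was Sox4, whose log2 fold change turned to -0.011 when scaled to library totals only, a value near 0. Members were called only without WT1. With each library left out in turn, the count of genes past 5% FDR ranged from 0 to 1849, and the log2 fold change ranged from -0.81 to -0.10 for Sox1, -0.95 to -0.19 for Sox2, -1.59 to -0.40 for Sox21, -0.42 to 0.69 for Sox4, -0.16 to 0.25 for Sox11, 0.19 to 0.34 for Sox12, -0.54 to -0.11 for Sox8, -0.59 to -0.16 for Sox9 and 0.09 to 0.89 for Sox10. The count of all genes past 5% FDR was 0 in the 8 alternatives, with 239 (a mean CPM of at least 1) to 920 (deposited table as a block) at an unadjusted p below 0.05. With that block the edgeR adjusted p was 0.523 for Sox21 and 0.597 for Sox2. No paired analysis was possible because the groups share only replicate number 1, and the block just given is the deposited table, which no label calls a pairing. Leaving out a library turned the sign of the median of the POU, newborn neuron, astrocyte, cartilage, vessel and defining cortex lists. Each of these medians lay within 0.24 of 0 under every such fit, with few exceptions. Those were cartilage without cKO1 (-0.44), and the cortex list without WT1 (-0.33) and without cKO2 (-0.34). With 2 libraries a group and WT4 apart, the spread between libraries limits what could be called, and Sox14 was too low to test.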
